A study of Homo sapiens with 18 samples.

Results

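SW48 cells given siRNA against CHD4 were compared after their DNA methyltransferase DNMT1 had been lowered with siRNA and after treatment with decitabine, a drug that disables DNA methyltransferases. The comparison took 6 of the 18 libraries of the series, chosen by their titles: 3 of cells given siRNA against CHD4 (siCHD4) plus siRNA against DNMT1 (siDNMT1), called the siDNMT1 arm, and 3 of cells given siCHD4 plus decitabine, called the decitabine arm. SW48 is an established line from a human colon adenocarcinoma, and RNA sequencing of total RNA, depleted of ribosomal RNA, gave the expression of each gene as FPKM, a count of fragments scaled to transcript length and to the mapped total of the library.

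In the siDNMT1 arm the siDNMT1 was given on days 1, 3 and 5, the siCHD4 on days 7 and 8, and RNA was collected on day 11. In the decitabine arm 50 nM decitabine was given on days 1, 2 and 3, the siCHD4 on days 1 and 2, and RNA was collected on day 5. Cells with CHD4 left intact were given control siRNA plus siDNMT1, or control siRNA plus decitabine, on the same schedules as their siCHD4 counterparts, with 3 libraries each. Cells given siCHD4 alone, or control siRNA alone, were treated on days 1, 3 and 6 and collected on day 8, again with 3 libraries each. The agent, the order of the treatments and the day of collection differ together between the arms and cannot be told apart. The labels leave unstated if a group's 3 libraries were grown as separate cultures. The p-values below therefore reflect variation among the libraries alone, and that variation may be technical.

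DNMT1 restores cytosine methylation at CpG sites on newly copied DNA, and promoters that carry dense methylation are usually silent. Decitabine is a deoxycytidine analogue that is phosphorylated in the cell, built into DNA at replication and traps DNA methyltransferases there as covalent adducts, whereas siDNMT1 removes the DNMT1 transcript. CHD4 supplies the ATP-driven remodelling activity of NuRD, a histone deacetylase complex that represses transcription, including at promoters with methylated DNA. Genes of the germline, of other tissues and of imprinted loci are the classes best known to be held silent by DNA methylation in colorectal cancer cells.

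The targeted transcripts were not equally low in the arms. DNMT1, at chr19:10244018-10341962 on the minus strand (GRCh37, by GENCODE annotation, as for all gene locations below), had 12.6, 11.0 and 12.8 FPKM in the siDNMT1 arm and 52.0, 53.6 and 44.7 FPKM in the decitabine arm. The siDNMT1 arm was thus at 24.2% of the decitabine arm (log2 change -1.96 on the log2(FPKM + 1) scale, adjusted p = 1.02e-07). All 3 libraries of the siDNMT1 arm were below all 3 of the decitabine arm, which gives an exact two-sided permutation p of 0.1, the smallest that 3 against 3 libraries allow. CHD4, at chr12:6679248-6723690 on the minus strand, had 29.0, 27.1 and 29.1 FPKM in the siDNMT1 arm and 55.6, 56.5 and 52.6 FPKM in the decitabine arm (log2 change -0.93 ± 0.14 (SE), adjusted p = 0.000401; exact two-sided permutation p = 0.1). The CHD4 level was thus 45.2% of that with control siRNA alone (62.8 ± 4.78 FPKM, SD, n = 3) in the siDNMT1 arm and 87.3% of it in the decitabine arm. With siCHD4 alone it was 49.9%, with 39.0, 31.8 and 23.2 FPKM in the 3 libraries. The decitabine arm bears the label siCHD4, yet its CHD4 level at collection lay nearer to control siRNA than to siCHD4 alone, and every difference between the arms goes with a difference in CHD4. In cells given control siRNA, CHD4 averaged 68.2 ± 5.19 FPKM with siDNMT1 and 76.2 ± 8.17 FPKM with decitabine (SD, n = 3 each; exact two-sided permutation p = 0.3). The de novo methyltransferases DNMT3A and DNMT3B did not pass the test between the arms (log2 changes 0.26 and -0.13, adjusted p = 0.145 and 0.496). DNMT3A averaged 25.6 ± 0.224 FPKM in the siDNMT1 arm and 21.2 ± 0.782 FPKM in the decitabine arm (SD, n = 3 each), and the arms did not overlap. It passed in limma fits on the compared groups alone (adjusted p = 0.00876) and with library weights (adjusted p = 0.00564).

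**Figure D1:**
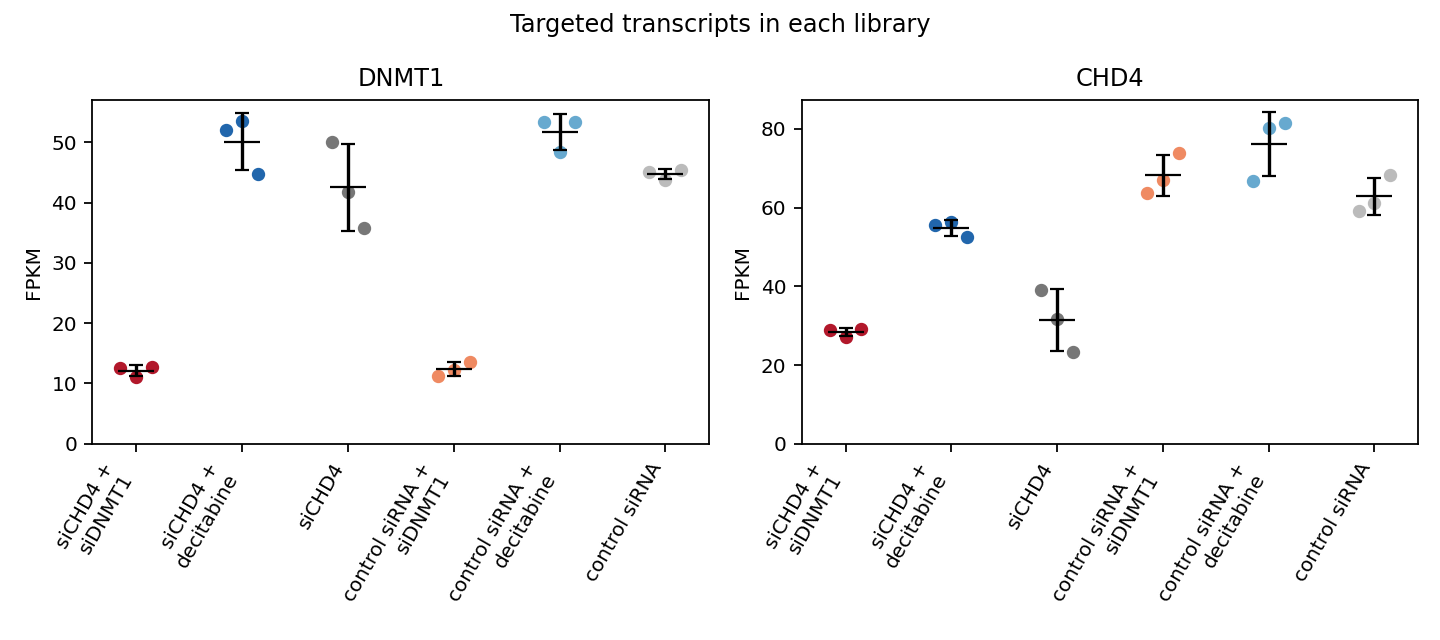
Level of DNMT1 (left) and CHD4 (right) in FPKM in each of the 18 libraries, by group. Points are libraries, the horizontal line is the group mean and the bar the SD of 3 libraries. DNMT1 lies between 11.0 and 12.8 FPKM in the siDNMT1 arm and between 44.7 and 53.6 FPKM in the decitabine arm, and CHD4 lies between 27.1 and 29.1 FPKM in the siDNMT1 arm and between 52.6 and 56.5 FPKM in the decitabine arm.

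The libraries also differed in make-up. Genes at 1 FPKM or more numbered 12434 to 12502 in the siDNMT1 arm and 12039 to 12137 in the decitabine arm. Genes of small RNAs held 49.3% to 51.5% of all FPKM in the siDNMT1 arm and 32.1% to 41.3% in the decitabine arm. The FPKM that 1 fragment was worth, on the log2 scale relative to a control library, was -0.27 to -0.01 in the siDNMT1 arm and -0.73 to -0.49 in the decitabine arm, so that the decitabine arm was the deeper. Over all genes tested, libraries of an arm correlated at r of 0.963 to 0.968 and libraries of different arms at 0.940 to 0.952, as a description. Colon epithelial markers were present in both arms, with EPCAM at 227 FPKM, CDX2 at 66.4 FPKM and CDH1 at 108 FPKM in the siDNMT1 arm and 220.2, 56.5 and 93.3 FPKM in the decitabine arm.

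Genes that were silent in cells given control siRNA alone, germline genes among them, were often higher in the siDNMT1 arm, while many genes of DNA replication and of the p53 response were lower. Of 12809 genes tested, 2445 (19.1%) passed the test between the arms at an adjusted p below 0.05, 1157 of them higher (9.03%) and 1288 lower (10.1%) in the siDNMT1 arm. Large changes lay on the higher side: 163 called genes were higher by at least 1 on the log2 scale and 20 were lower by at least 1. The median over all tested genes was -0.01. Adjusted p-values here and below come from limma with Benjamini-Hochberg adjustment over all tested genes. Log2 changes are on the log2(FPKM + 1) scale, which understates the change of low genes, and a gene is called where its adjusted p is below 0.05. The libraries of the arms did not overlap for 6699 genes (52.3%). Genes with the largest changes were named only where the arms did not overlap, so separate arms are for them a condition of the choice. The number of calls rested on single libraries: it was 1463 and 1305 without decitabine-arm replicates 0 and 2, and 1281 and 1305 without siDNMT1-arm replicates 0 and 2.

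Of the 726 tested genes with a mean under 0.5 FPKM in cells given control siRNA alone, 336 were called higher (46.3%) and 26 lower (3.58%) in the siDNMT1 arm, against 6.79% higher and 10.4% lower of the 12083 other tested genes. The filter, at least 1 FPKM in at least 3 libraries, let such genes in only where some group expressed them, so these shares are a description. With no filter, 1082 of 7503 such genes (14.4%) were higher and 89 (1.19%) were lower, against 6.1% and 9.63% of 12321 other genes. Of the 726 genes, 606 to 619 reached 1 FPKM in a library of the siDNMT1 arm and 374 to 396 in a library of the decitabine arm. The filter used the same level of 1 FPKM, so these counts, and those by group means that follow, are partly set by it. By group means, 639 reached 1 FPKM in the siDNMT1 arm, 393 in the decitabine arm, 113 with siCHD4 alone, 227 with control siRNA plus siDNMT1 and 234 with control siRNA plus decitabine. In these control siRNA groups the numbers by group means were thus close, and 44 of the genes were called higher and 25 lower with siDNMT1 than with decitabine. The mean with decitabine includes replicate 0, the shallowest library, where the FPKM that 1 fragment was worth was 2.05 on the log2 scale. Counts per library were not made for the control siRNA groups.

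Among genes with the largest changes, CLDN6 (chr16:3064713-3070072, minus strand), a claudin of embryonic epithelia, had 7.57, 6.57 and 6.95 FPKM in the siDNMT1 arm and 0.73, 0.501 and 0.4 FPKM in the decitabine arm (log2 change 2.38 ± 0.17 (SE), adjusted p = 8.91e-07). Its level in the decitabine arm overlapped that with siCHD4 alone, which was 0.356, 0.561 and 0.189 FPKM. IL1RAPL1 (chrX:28605563-29974835, plus strand), a synaptic protein of the interleukin-1 receptor family, had 6.28, 8.09 and 6.43 FPKM in the siDNMT1 arm and 0.369, 0.183 and 0.156 FPKM in the decitabine arm (log2 change 2.68 ± 0.11 (SE), adjusted p = 1.09e-09). The groups stood far apart, and siCHD4 alone averaged 0.465 ± 0.135 FPKM (SD, n = 3). S100A1 (chr1:153600402-153604515, plus strand), a calcium-binding protein best known from muscle, had 9.50, 10.1 and 10.7 FPKM in the siDNMT1 arm and 1.35, 1.51 and 3.01 FPKM in the decitabine arm (log2 change 1.95 ± 0.19 (SE), adjusted p = 1.45e-05). SNCG (chr10:88718356-88723015, plus strand), which encodes gamma-synuclein, had 4.32, 4.18 and 3.34 FPKM in the siDNMT1 arm and 0.845, 0.629 and 0.251 FPKM in the decitabine arm (log2 change 1.66 ± 0.25 (SE), adjusted p = 0.000444). For both genes every library of the siDNMT1 arm was above every library of the decitabine arm, and siCHD4 alone averaged 1.30 FPKM of S100A1 and 0.156 FPKM of SNCG.

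DHRS2 (chr14:24099324-24114848, plus strand), a short-chain dehydrogenase/reductase, had 316, 375 and 333 FPKM in the siDNMT1 arm and 54.4, 44.9 and 57.2 FPKM in the decitabine arm (log2 change 2.69 ± 0.35 (SE), adjusted p = 0.000122). The decitabine arm was here below siCHD4 alone, which had 83.0, 114 and 96.2 FPKM. LGALS1 (chr22:38071643-38075809, plus strand), the gene of the secreted lectin galectin-1, had 268, 287 and 254 FPKM in the siDNMT1 arm and 61.1, 50.8 and 62.9 FPKM in the decitabine arm (log2 change 2.19 ± 0.24 (SE), adjusted p = 2.81e-05). Its level in the decitabine arm overlapped that with siCHD4 alone, which was 44.6, 68.2 and 58.8 FPKM. VIM (chr10:17270240-17279592, plus strand), the intermediate filament protein vimentin of mesenchymal cells, had 7.02, 6.25 and 6.47 FPKM in the siDNMT1 arm and 0.744, 0.973 and 1.04 FPKM in the decitabine arm (log2 change 1.98 ± 0.25 (SE), adjusted p = 9.36e-05). BST2 (chr19:17513748-17516439, minus strand), the antiviral membrane protein tetherin, had 78.1, 99.1 and 85.1 FPKM in the siDNMT1 arm and 32.1, 33.1 and 39.0 FPKM in the decitabine arm (log2 change 1.31 ± 0.29 (SE), adjusted p = 0.0072). Both were lowest with siCHD4 alone among these 3 groups, at 0.144 FPKM of VIM and 16.7 FPKM of BST2. The small noncoding RNAs SNAR-F and SNAR-I stood at 292, 181 and 643 FPKM and 184, 100.1 and 209 FPKM in the siDNMT1 arm and at 27.5, 0 and 0 FPKM and 30.4, 0 and 36.0 FPKM in the decitabine arm. These genes belong to a family of near-identical copies among which reads can be split, and both are listed at 0 with siCHD4 alone, so their log2 changes of 6.73 and 3.91 are uncertain.

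**Figure D2:**
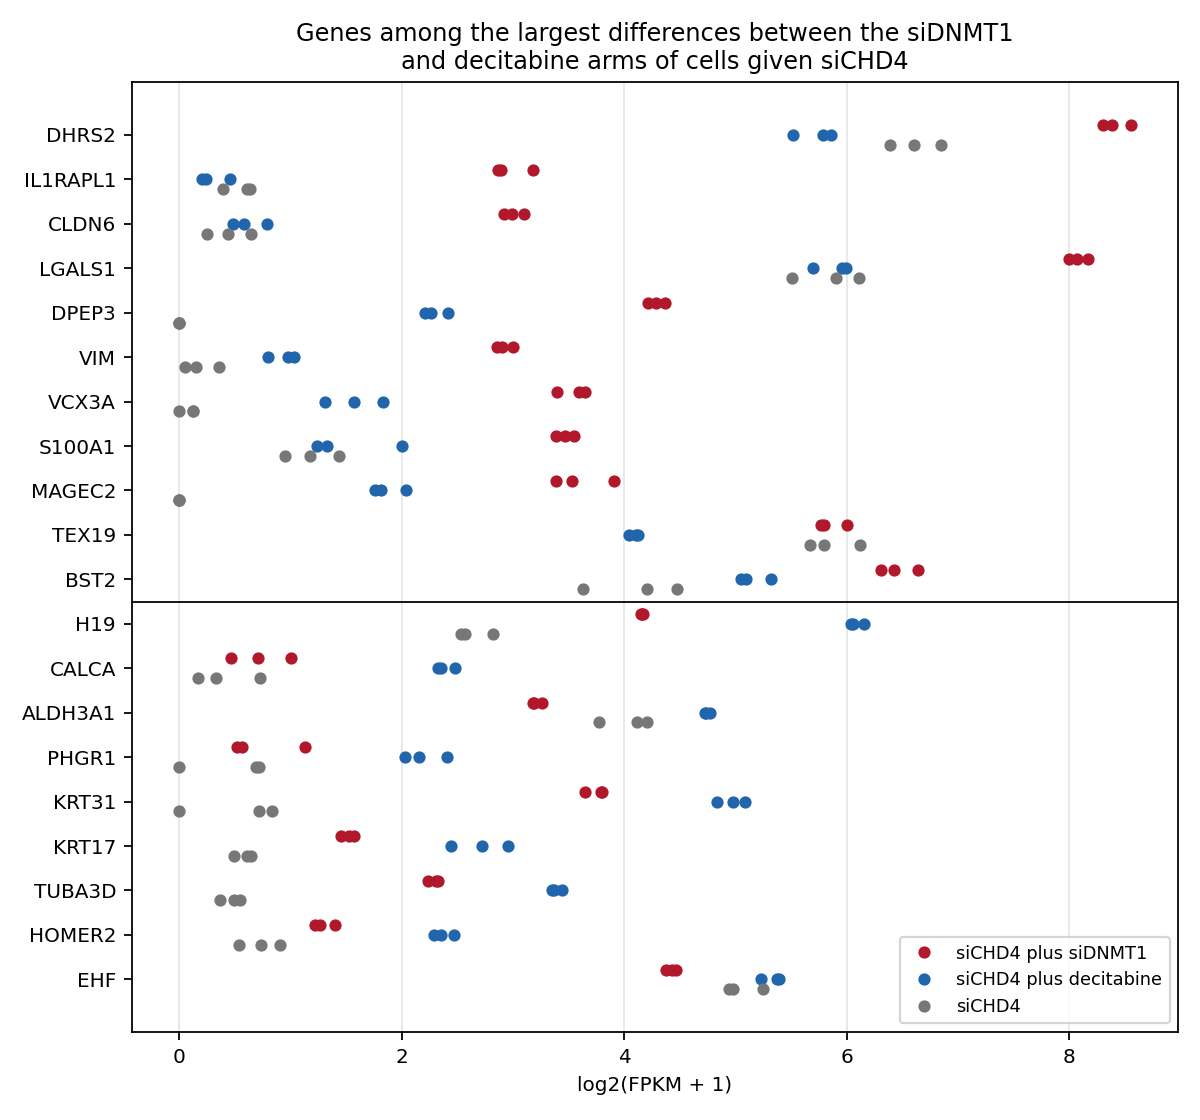
Values of 11 genes higher (above the line) and 9 genes lower (below the line) in the siDNMT1 arm, as log2(FPKM + 1) in each library, for siCHD4 plus siDNMT1, siCHD4 plus decitabine and siCHD4 alone. Each point is a library. The arms do not overlap for any gene shown, which was a condition for choosing most of them. TEX19 is as high with siCHD4 alone (57.6 FPKM on average) as in the siDNMT1 arm (57.1 FPKM), above the decitabine arm (16.0 FPKM).

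Fewer genes were much lower in the siDNMT1 arm. H19 (chr11:2016396-2025782, minus strand), an imprinted noncoding RNA expressed from the maternal allele, had 16.8, 16.7 and 17.0 FPKM in the siDNMT1 arm and 70.5, 65.6 and 64.6 FPKM in the decitabine arm (log2 change -1.93 ± 0.13 (SE), adjusted p = 7.08e-07). Both arms were above siCHD4 alone, where H19 averaged 5.26 ± 0.7 FPKM (SD, n = 3). CALCA (chr11:14988168-14993900, minus strand), the precursor gene of calcitonin and a neuropeptide, had 1.01, 0.38 and 0.635 FPKM in the siDNMT1 arm and 4.03, 4.57 and 4.12 FPKM in the decitabine arm (log2 change -1.66 ± 0.21 (SE), adjusted p = 8.52e-05). The siDNMT1 arm was here close to siCHD4 alone, which had 0.122, 0.256 and 0.66 FPKM. ALDH3A1 (chr17:19641297-19652256, minus strand), an aldehyde dehydrogenase, had 8.59, 8.11 and 8.09 FPKM in the siDNMT1 arm and 25.4, 26.4 and 25.7 FPKM in the decitabine arm (log2 change -1.54 ± 0.11 (SE), adjusted p = 8.91e-07). With siCHD4 alone it lay between the arms, at 16.3, 17.4 and 12.7 FPKM. PHGR1, named for its proline, histidine and glycine content and expressed in intestinal epithelium, had 0.437, 0.476 and 1.19 FPKM in the siDNMT1 arm and 3.46, 4.30 and 3.08 FPKM in the decitabine arm (log2 change -1.46, adjusted p = 0.00901). EHF, an epithelial ETS factor, had 21.1, 20.5 and 19.8 FPKM in the siDNMT1 arm and 36.5, 41.1 and 40.6 FPKM in the decitabine arm (log2 change -0.91, adjusted p = 0.000586). No library of an arm crossed into the other for these genes.

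Keratins were among the genes lower in the siDNMT1 arm. KRT31, a hair keratin, had 11.5, 12.9 and 12.8 FPKM in the siDNMT1 arm and 30.6, 33.0 and 27.6 FPKM in the decitabine arm (log2 change -1.22, adjusted p = 0.000547). KRT17, a keratin of basal and stressed epithelium, averaged 1.87 ± 0.119 FPKM in the siDNMT1 arm and 5.61 ± 1.16 FPKM in the decitabine arm (SD, n = 3 each; log2 change -1.19, adjusted p = 5.9e-05). Both were under 1 FPKM with siCHD4 alone. The scaffold gene HOMER2 averaged 1.46 ± 0.162 FPKM in the siDNMT1 arm and 4.18 ± 0.331 FPKM in the decitabine arm (log2 change -1.08, adjusted p = 3.46e-05). TRMT61A, a subunit of the methyltransferase that modifies adenosine in transfer RNA, averaged 5.68 ± 0.602 FPKM in the siDNMT1 arm and 13.5 ± 1.07 FPKM in the decitabine arm (log2 change -1.12, adjusted p = 0.000173). With a pseudocount of 0.1 FPKM the call of KRT31 was lost (adjusted p = 0.119).

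Because DNMT1 and decitabine both bear on CpG methylation, the 250 bases upstream of the annotated start are shown for 4 genes that were higher and 2 that were lower in the siDNMT1 arm, with each CpG in capitals. The sequences are RefSeq's for GRCh38.p14, read 5′ to 3′ on the strand of the gene. Their starts are RefSeq's too and can differ from the GENCODE starts of the gene locations given above, H19 included. Methylation was not measured.

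CLDN6: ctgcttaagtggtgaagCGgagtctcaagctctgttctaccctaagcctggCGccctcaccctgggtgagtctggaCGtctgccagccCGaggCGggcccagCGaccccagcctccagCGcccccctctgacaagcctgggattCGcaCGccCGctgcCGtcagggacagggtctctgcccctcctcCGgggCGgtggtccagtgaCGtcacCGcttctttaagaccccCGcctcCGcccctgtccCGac
DPEP3: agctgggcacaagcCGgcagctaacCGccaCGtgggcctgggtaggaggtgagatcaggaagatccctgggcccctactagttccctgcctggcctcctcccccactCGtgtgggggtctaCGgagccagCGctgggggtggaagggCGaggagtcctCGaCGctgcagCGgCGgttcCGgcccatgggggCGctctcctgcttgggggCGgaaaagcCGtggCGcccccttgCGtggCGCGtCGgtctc
MAGEC2: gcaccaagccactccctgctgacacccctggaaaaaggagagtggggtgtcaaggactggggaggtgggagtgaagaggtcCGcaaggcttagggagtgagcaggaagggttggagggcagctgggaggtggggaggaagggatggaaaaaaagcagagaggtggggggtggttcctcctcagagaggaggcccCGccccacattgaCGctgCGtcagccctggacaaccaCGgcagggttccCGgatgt
VIM: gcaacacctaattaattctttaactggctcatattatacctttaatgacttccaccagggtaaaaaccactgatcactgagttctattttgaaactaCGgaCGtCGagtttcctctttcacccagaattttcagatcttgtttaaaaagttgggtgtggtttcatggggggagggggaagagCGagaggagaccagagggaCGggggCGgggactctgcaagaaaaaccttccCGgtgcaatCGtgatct
CALCA: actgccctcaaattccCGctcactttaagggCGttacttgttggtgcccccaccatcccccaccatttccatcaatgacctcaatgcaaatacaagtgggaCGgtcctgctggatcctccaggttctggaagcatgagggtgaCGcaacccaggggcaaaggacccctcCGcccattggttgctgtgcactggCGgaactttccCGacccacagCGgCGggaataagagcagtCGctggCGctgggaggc
H19: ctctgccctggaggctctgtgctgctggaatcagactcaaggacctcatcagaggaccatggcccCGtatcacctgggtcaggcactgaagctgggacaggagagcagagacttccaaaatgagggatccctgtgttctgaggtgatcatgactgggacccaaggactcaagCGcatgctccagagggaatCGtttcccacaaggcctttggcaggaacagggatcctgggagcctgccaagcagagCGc

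The stretch of CLDN6 lies at chr16:3018184-3018433 (minus strand), that of DPEP3 at chr16:67980500-67980749 (minus strand) and that of MAGEC2 at chrX:142205291-142205540 (minus strand). The stretch of VIM lies at chr10:17227991-17228240 (plus strand), that of CALCA at chr11:14972352-14972601 (minus strand) and that of H19 at chr11:2001267-2001516 (minus strand). The motif searched was CG, which reads the same on both strands. CLDN6 holds 18 of them and DPEP3 20, and 36.5% and 32.1% of 27305 stretches of the same length hold at least as many. The counts are 6 in MAGEC2, 8 in VIM, 11 in CALCA and 4 in H19, which 61.3%, 55.8%, 50% and 69.9% of stretches reach. The genes higher in the siDNMT1 arm thus hold 6 to 20, and the genes lower in it 4 and 11.

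MAGE genes of the X chromosome, which encode antigens expressed in testis and in tumours, were higher in the siDNMT1 arm. MAGEC2 (chrX:141290128-141293076, minus strand) had 9.46, 14.0 and 10.6 FPKM in the siDNMT1 arm and 2.52, 3.12 and 2.38 FPKM in the decitabine arm (log2 change 1.74 ± 0.13 (SE), adjusted p = 1.06e-06), and is listed at 0 in all 3 libraries with siCHD4 alone. MAGEB6 had 12.4, 13.7 and 11.8 FPKM in the siDNMT1 arm and 3.00, 3.46 and 4.62 FPKM in the decitabine arm (log2 change 1.55, adjusted p = 1.88e-06). MAGEA10 had 3.33, 2.65 and 3.24 FPKM in the siDNMT1 arm and 0.854, 0.821 and 0.918 FPKM in the decitabine arm (log2 change 1.12, adjusted p = 1.06e-06). MAGEC1 had 2.74, 1.75 and 2.86 FPKM in the siDNMT1 arm and 0.713, 0.818 and 0.357 FPKM in the decitabine arm (log2 change 1.08, adjusted p = 7.12e-05). In each case the lowest library of the siDNMT1 arm was above the highest of the decitabine arm. Of 14 tested members of the MAGE list, 8 were called higher and 0 lower, with a median log2 change of 0.87 against -0.01 over all tested genes. The count of 8 was reached with any of the 6 libraries left out (1 was lower without replicate 0 of control siRNA plus decitabine). A count over tested members follows from the filter in part, so the list was also counted with no filter, where 10 of the 24 members in the table were higher and 1 was lower (9.25% and 6.43% of 19824 genes). Summed over the list, MAGE transcripts ranged from 83.0 to 97.2 FPKM in the siDNMT1 arm, from 44.5 to 53.9 FPKM in the decitabine arm, from 0.4 to 0.6 FPKM with siCHD4 alone and from 0.1 to 0.4 FPKM with control siRNA.

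The VCX genes, an X-linked family of male germ cells with near-identical members, were higher as well. VCX3A (chrX:6451659-6453159, minus strand) had 9.55, 11.1 and 11.5 FPKM in the siDNMT1 arm and 2.57, 1.48 and 1.97 FPKM in the decitabine arm (log2 change 1.97 ± 0.12 (SE), adjusted p = 1.38e-07). VCX had 14.9, 15.6 and 13.7 FPKM in the siDNMT1 arm and 3.27, 3.67 and 5.10 FPKM in the decitabine arm (log2 change 1.67, adjusted p = 1.58e-06). VCX3B had 4.81, 4.34 and 6.04 FPKM in the siDNMT1 arm and 1.15, 1.27 and 0.96 FPKM in the decitabine arm (log2 change 1.50, adjusted p = 1.06e-06). The arms did not overlap for any of these 3, and reads shared by the copies make the level of each uncertain. Of 20 tested members of the list of other X-linked cancer-testis genes, 10 were higher and 3 lower (median 0.53). Over all tested genes 9.03% were higher and 10.1% lower. With no filter 12 of 54 members in the table were higher and 4 lower. The lower count was 1 without decitabine-arm replicate 0 or siDNMT1-arm replicate 2.

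Of 30 tested autosomal germline genes 11 were higher, 2 were lower and 17 were not called, beside 9.03% higher and 10.1% lower over all tested genes. DPEP3 (chr16:68009566-68014452, minus strand), a membrane dipeptidase of testis, had 18.5, 19.7 and 17.6 FPKM in the siDNMT1 arm and 3.79, 3.64 and 4.35 FPKM in the decitabine arm (log2 change 1.99 ± 0.15 (SE), adjusted p = 9.77e-07), and is listed at 0 with siCHD4 alone. TEX19 (chr17:80317123-80321651, plus strand), which in mouse acts against retrotransposons in germ cells, had 54.6, 63.1 and 53.6 FPKM in the siDNMT1 arm and 16.2, 15.5 and 16.4 FPKM in the decitabine arm (log2 change 1.77 ± 0.21 (SE), adjusted p = 6.95e-05). With siCHD4 alone TEX19 had 49.9, 68.4 and 54.6 FPKM, as high as the siDNMT1 arm. The list summed to 334.3 to 374.2 FPKM in the siDNMT1 arm and 193.8 to 215.7 FPKM in the decitabine arm. Its sum was 137.2 to 237.4 FPKM with siCHD4 alone and 13.2 to 16.7 FPKM with control siRNA. Members other than TEX19 were thus also expressed with siCHD4 alone. TEX101, a surface protein of germ cells, averaged 6.38 ± 0.528 FPKM in the siDNMT1 arm and 2.30 ± 0.515 FPKM in the decitabine arm (SD, n = 3 each; log2 change 1.17, adjusted p = 0.000461). TDRD9, a helicase of the piRNA pathway, averaged 3.43 ± 0.323 FPKM in the siDNMT1 arm and 1.51 ± 0.145 FPKM in the decitabine arm (log2 change 0.82, adjusted p = 2.26e-05). PRAME, a cancer-testis antigen, averaged 43.9 ± 1.99 FPKM in the siDNMT1 arm and 20.2 ± 0.924 FPKM in the decitabine arm (log2 change 1.08, adjusted p = 0.000969). TUBA3D, an alpha-tubulin with near-identical copies, went the other way, with 3.89 ± 0.152 FPKM in the siDNMT1 arm and 9.48 ± 0.369 FPKM in the decitabine arm (log2 change -1.10, adjusted p = 0.00698; adjusted p = 0.0511 with a pseudocount of 0.1 FPKM). Of 30 tested members, 11 were higher and 2 lower (median 0.29), and with no filter 10 of 63 were higher and 2 lower. The higher count was 6 or 7 without decitabine-arm replicate 0 or 2 or any siDNMT1-arm library.

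**Figure D3:**
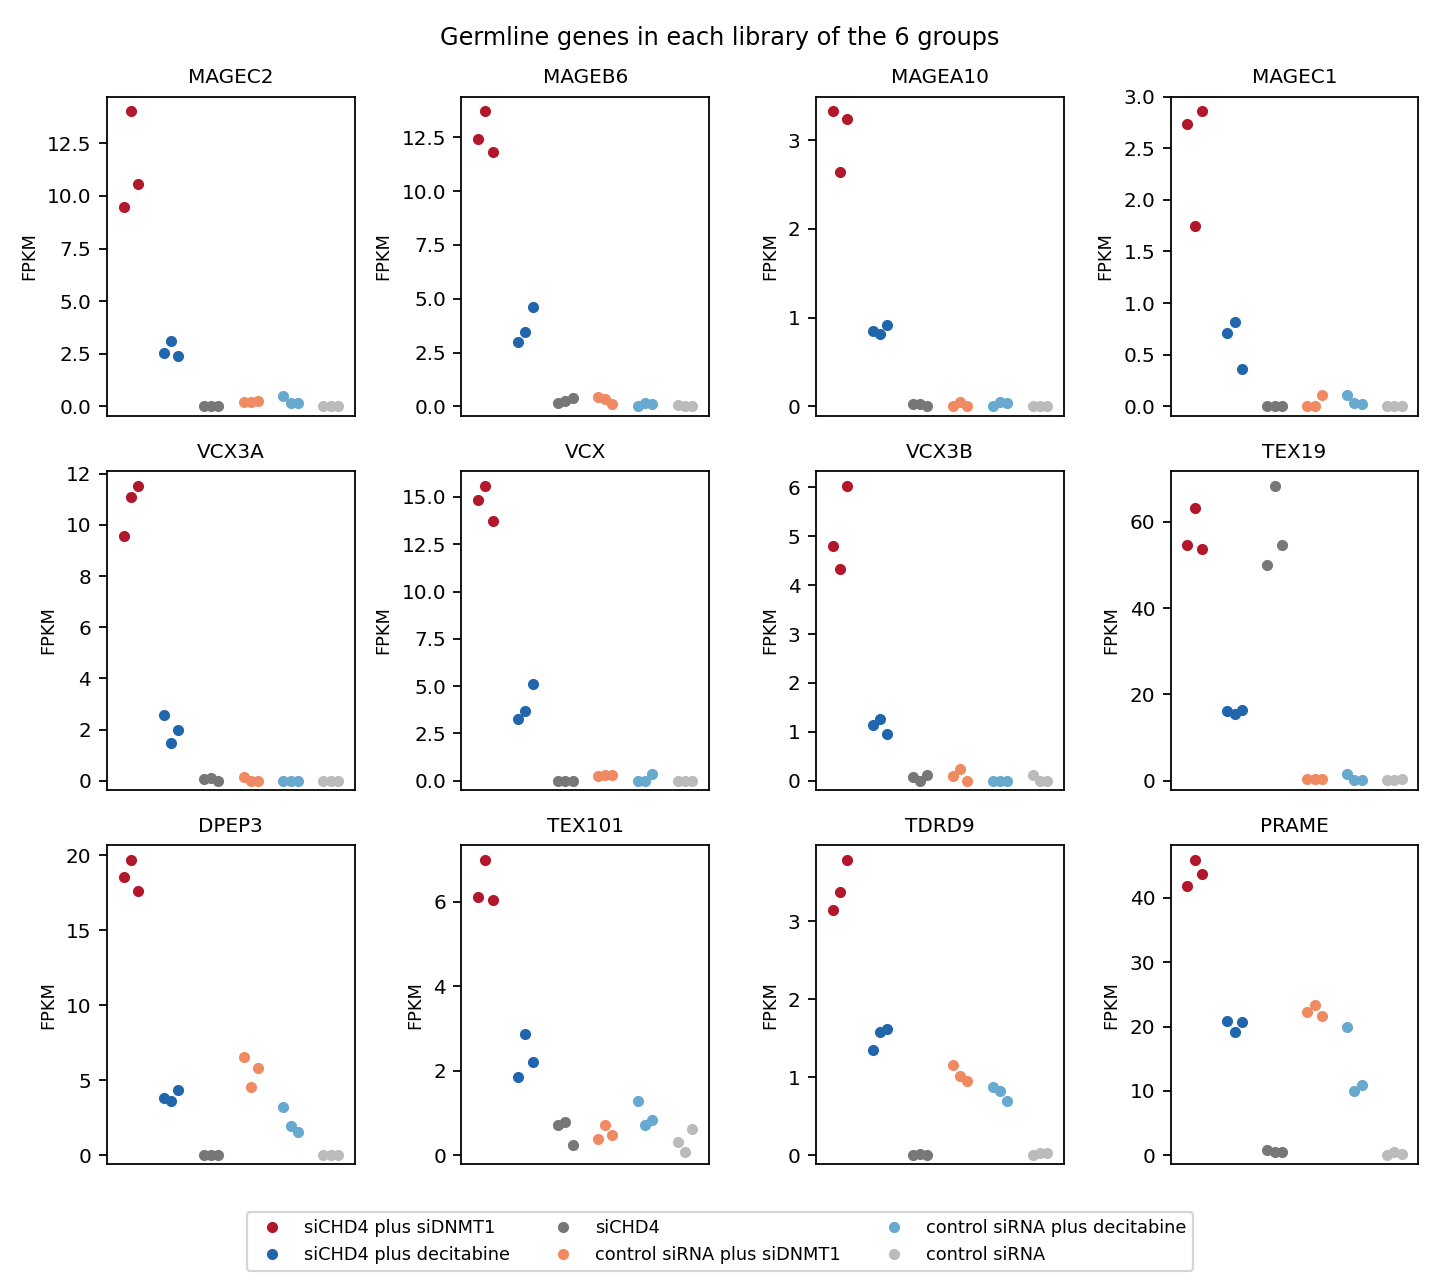
FPKM of 12 germline genes in each library of the 6 groups, from left to right siCHD4 plus siDNMT1, siCHD4 plus decitabine, siCHD4, control siRNA plus siDNMT1, control siRNA plus decitabine and control siRNA. Each panel has its own axis and each point is a library. MAGEC2 averages 11.3 FPKM in the siDNMT1 arm, 2.67 FPKM in the decitabine arm and under 0.5 FPKM in every other group, whereas DPEP3 and PRAME are also above 1 FPKM in every library given control siRNA plus siDNMT1 or decitabine.

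The X chromosome held a larger share of higher genes than any autosome, with 71 of 402 located genes (17.7%) higher and 33 (8.21%) lower, against 6.88% to 12.1% higher on the autosomes. Without the members of both X-linked lists, 54 of 369 (14.6%) were higher and 30 (8.13%) lower. Of 18 tested imprinted genes, 6 were higher and 1, H19, was lower (median 0.36), beside 9.03% higher and 10.1% lower over all tested genes. GRB10, an imprinted adaptor of growth factor receptors, had 11.7, 11.2 and 10.6 FPKM in the siDNMT1 arm and 4.88, 4.98 and 4.86 FPKM in the decitabine arm (log2 change 1.04, adjusted p = 0.000931). The higher count of imprinted genes was 2 or 3 without decitabine-arm replicate 0 or 2 or siDNMT1-arm replicate 0 or 2.

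Genes often hypermethylated in colorectal cancer were higher in 5 of 9 tested members and lower in 0 (median 0.52). Over all tested genes 9.03% were higher and 10.1% lower. With any of the 6 libraries left out the count of the list was still 5. Besides VIM its higher genes were DKK1, THBS1, ID4 and ESR1. DKK1, a secreted inhibitor of Wnt signalling, had 1.05, 1.62 and 1.46 FPKM in the siDNMT1 arm and 0.163, 0.203 and 0.242 FPKM in the decitabine arm (log2 change 0.98, adjusted p = 1.75e-05). THBS1, the matrix protein thrombospondin-1, had 60.8, 56.6 and 61.2 FPKM in the siDNMT1 arm and 38.3, 38.0 and 33.8 FPKM in the decitabine arm (log2 change 0.69, adjusted p = 3.2e-05), against 0.701 FPKM with siCHD4 alone. ID4, an inhibitor of basic helix-loop-helix factors, averaged 1.55 ± 0.205 FPKM in the siDNMT1 arm and 0.546 ± 0.0351 FPKM in the decitabine arm (log2 change 0.72, adjusted p = 0.00017). ESR1, the oestrogen receptor, averaged 1.10 ± 0.0256 FPKM in the siDNMT1 arm and 0.47 ± 0.0322 FPKM in the decitabine arm (log2 change 0.52, adjusted p = 0.000365; adjusted p = 0.0509 with a pseudocount of 0.1 FPKM). With no filter 12 of the 44 members in the table were higher and 0 lower.

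Mesenchymal genes were higher in the siDNMT1 arm as well, in 11 of 20 tested members, with 0 lower (median 0.57). Over all tested genes 9.03% were higher and 10.1% lower. With no filter 11 of the 31 members in the table were higher and 1 was lower, beside 9.25% and 6.43% over all genes. VIM and THBS1, described above, belong to this list too. CTGF, a matrix-associated growth factor, had 8.89, 7.86 and 8.28 FPKM in the siDNMT1 arm and 2.57, 2.76 and 2.35 FPKM in the decitabine arm (log2 change 1.39, adjusted p = 0.00126). The arms did not overlap for CTGF. FN1, which encodes fibronectin, averaged 2.30 ± 0.0873 FPKM in the siDNMT1 arm and 0.94 ± 0.111 FPKM in the decitabine arm (log2 change 0.77, adjusted p = 5.41e-05). AXL, a receptor tyrosine kinase, averaged 1.44 ± 0.153 FPKM in the siDNMT1 arm and 0.393 ± 0.0351 FPKM in the decitabine arm (log2 change 0.81, adjusted p = 0.000368). The count of 11 was 7 without decitabine-arm replicate 0 or 2 or siDNMT1-arm replicate 2.

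Markers of other cell types moved with these genes. The counts below stand beside 9.03% higher and 10.1% lower over all tested genes, and the filter let in only markers that some libraries expressed. With no filter, 14 of 33 neural, 5 of 14 fibroblast and 6 of 22 blood markers were higher. The lower counts were then 0, 0 and 1, beside 9.25% higher and 6.43% lower over all genes. Of the neural markers, 7 of 12 tested were higher and 0 lower. UCHL1, a ubiquitin hydrolase abundant in neurons, had 8.64, 8.46 and 10.3 FPKM in the siDNMT1 arm and 3.70, 3.32 and 4.56 FPKM in the decitabine arm (log2 change 1.06, adjusted p = 7.69e-05). The summed level of the 33 neural markers was 251.6 to 269.1 FPKM in the siDNMT1 arm and 183.3 to 200.8 FPKM in the decitabine arm. The neuronal markers STMN2, ELAVL4 and NRSN1 were listed at 0 in all 6 libraries. BEX2 averaged 2.05 ± 0.515 FPKM in the siDNMT1 arm and 1.09 ± 0.248 FPKM in the decitabine arm (log2 change 0.54, adjusted p = 0.00621; adjusted p = 0.0846 with a pseudocount of 0.1 FPKM). The neural count was 2 or 3 without decitabine-arm replicate 0 or 2 or siDNMT1-arm replicate 0 or 2. Of the fibroblast markers, 3 of 6 tested were higher and 0 lower, and their sum was 158.6 to 174.2 FPKM in the siDNMT1 arm and 149.0 to 164.2 FPKM in the decitabine arm. The collagen gene COL6A3 averaged 20.9 ± 1.12 FPKM in the siDNMT1 arm and 6.86 ± 0.324 FPKM in the decitabine arm (log2 change 1.48, adjusted p = 2.38e-05). COL1A1 averaged 2.31 ± 0.669 FPKM in the siDNMT1 arm and 0.743 ± 0.0726 FPKM in the decitabine arm (log2 change 0.90, adjusted p = 0.00179). The fibroblast genes COL3A1 and POSTN were listed at 0. Of the blood markers, 6 of 10 tested were higher and 1 lower, and their sum was 34.3 to 39.5 FPKM in the siDNMT1 arm and 23.4 to 25.1 FPKM in the decitabine arm. PTPRC, the leukocyte phosphatase CD45, averaged 1.93 ± 0.328 FPKM in the siDNMT1 arm and 0.684 ± 0.0539 FPKM in the decitabine arm (log2 change 0.80, adjusted p = 0.000485). Globin genes were also among the 6, and the T-cell gene CD3D, the B-cell gene MS4A1 and TYROBP were listed at 0. The 1 endothelial marker tested was not called, and the 8 endothelial markers summed to 4.5 to 6.4 FPKM in the siDNMT1 arm and 2.7 to 4.7 FPKM in the decitabine arm. The part of other cells in these results was not tested, and the defining markers just named were listed at 0.

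**Figure D4:**
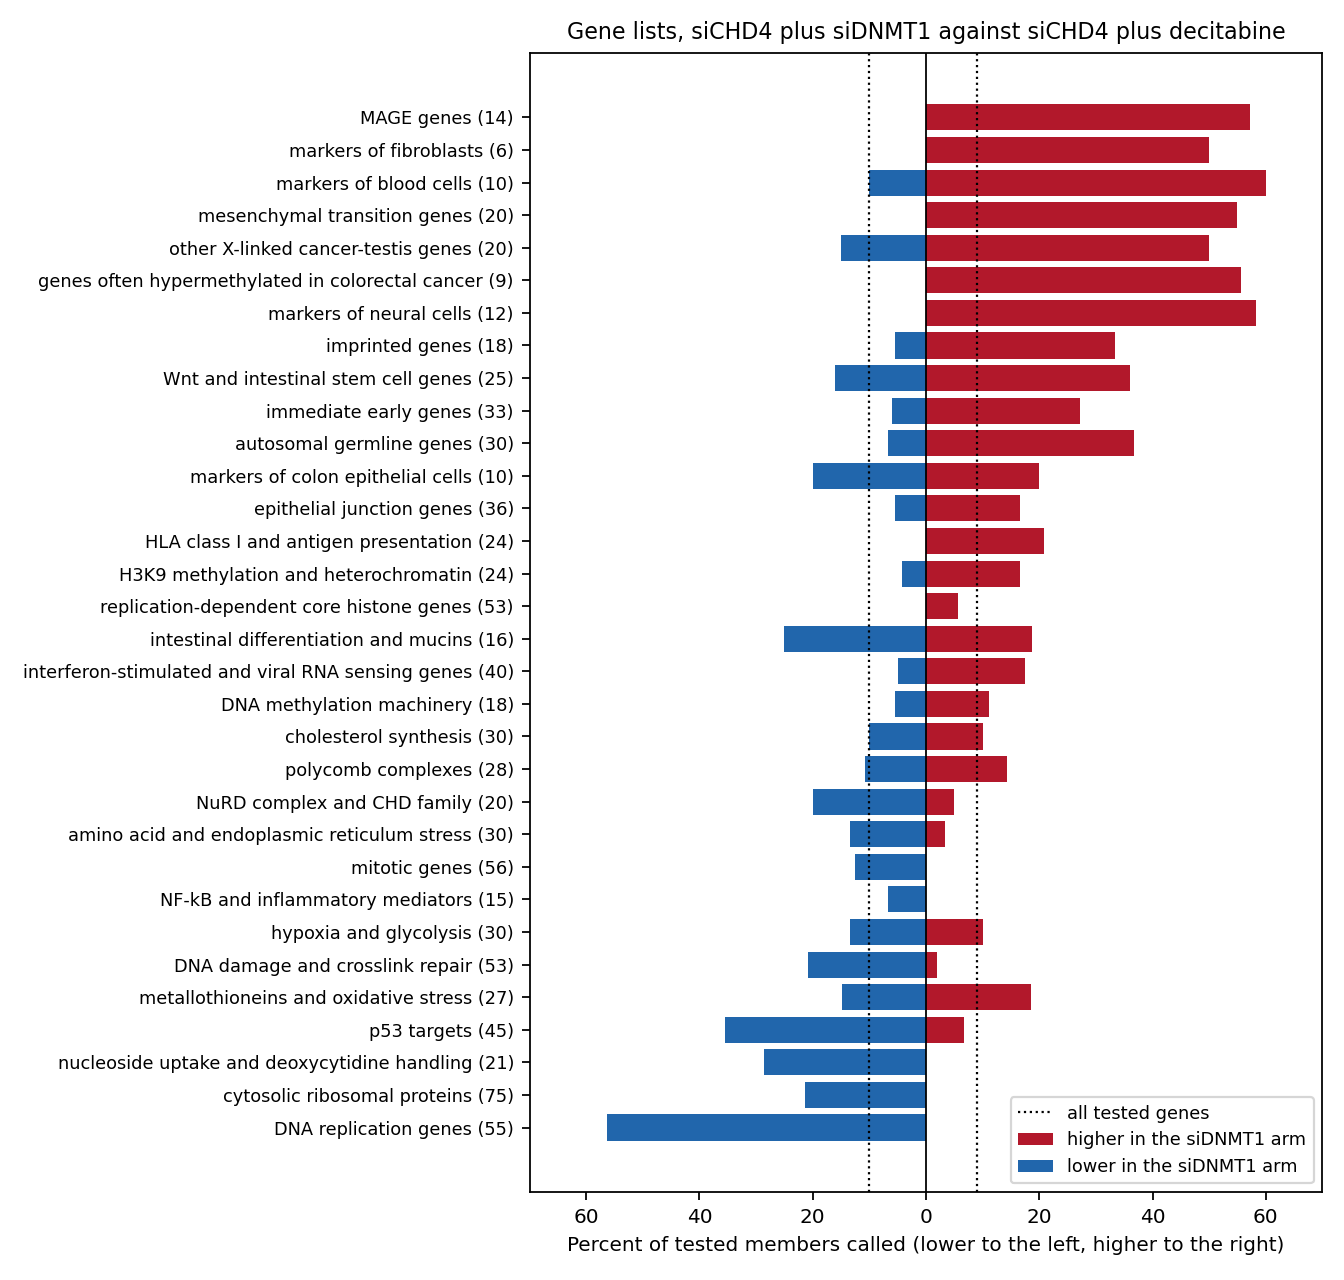
Percent of the tested members of each gene list with at least 5 tested members that was called higher (red, to the right) or lower (blue, to the left) in the siDNMT1 arm against the decitabine arm, with the number tested in brackets, ordered by the median log2 change. Dotted lines give the shares over all tested genes, 9.03% higher and 10.1% lower. MAGE genes have 8 of 14 higher, and DNA replication genes have 31 of 55 lower.

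DNA replication genes were lower in the siDNMT1 arm. Of 55 tested, 31 were lower and 0 higher, with a median log2 change of -0.39 against -0.01 over all tested genes, and 1 of the 55 had a positive change. RFC4, a subunit of the clamp loader, had 26.6, 26.2 and 26.6 FPKM in the siDNMT1 arm and 50.3, 46.1 and 51.9 FPKM in the decitabine arm (log2 change -0.88 ± 0.11 (SE), adjusted p = 0.000107). RRM1, the large subunit of ribonucleotide reductase, had 56.6, 63.5 and 61.0 FPKM in the siDNMT1 arm and 91.7, 89.0 and 99.6 FPKM in the decitabine arm (log2 change -0.62 ± 0.09 (SE), adjusted p = 0.000324). FEN1, the flap endonuclease of lagging-strand synthesis, had 48.4, 49.0 and 47.5 FPKM in the siDNMT1 arm and 75.9, 68.4 and 77.9 FPKM in the decitabine arm (log2 change -0.61 ± 0.11 (SE), adjusted p = 0.00252). None of the 3 had overlapping arms, and with control siRNA alone they averaged 74.6, 150.0 and 106 FPKM, above both arms. The count was 18 to 20 without decitabine-arm replicate 0 or 2 or siDNMT1-arm replicate 0 or 2. Of the mitotic genes 7 of 56 were lower and 0 higher (median -0.11), a share near the 10.1% lower over all tested genes, and 0 were lower without siDNMT1-arm replicate 0. Without each of the other 5 libraries of the arms 2 to 4 mitotic genes were lower, and without replicate 0 of control siRNA plus decitabine 11 were. Core histone genes had 3 of 53 higher, a share below the 9.03% higher over all tested genes, and 0 lower. The other 50 were not called (median 0.11). HIST1H3C, a histone H3 gene with near-identical copies, had 90.9, 93.3 and 74.3 FPKM in the siDNMT1 arm and 33.6, 29.3 and 30.0 FPKM in the decitabine arm (log2 change 1.44, adjusted p = 0.00837). The histone count was 1 without decitabine-arm replicate 0 and 5 without replicate 0 of control siRNA plus decitabine.

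Of the list of nucleoside uptake and deoxycytidine handling, which also holds RRM1, 6 of 21 tested members were lower and 0 higher (median -0.28). Beside this list and the repair genes below, 10.1% of all tested genes were lower and 9.03% higher. DCK, the deoxycytidine kinase that phosphorylates decitabine, had 9.40, 10.0 and 9.58 FPKM in the siDNMT1 arm and 15.1, 16.7 and 17.0 FPKM in the decitabine arm (log2 change -0.69, adjusted p = 0.013). SLC29A1, an equilibrative nucleoside transporter, had 13.5, 13.8 and 15.2 FPKM in the siDNMT1 arm and 27.4, 27.4 and 24.5 FPKM in the decitabine arm (log2 change -0.85, adjusted p = 0.00646). UCK2, a uridine and cytidine kinase, had 15.7, 14.9 and 15.5 FPKM in the siDNMT1 arm and 24.2, 23.1 and 23.0 FPKM in the decitabine arm (log2 change -0.58, adjusted p = 0.00845). The arms were separate for all 3, and DCK lost its call without decitabine-arm replicate 2 (adjusted p = 0.051), when the list's count was 3. Repair genes were lower in 11 of 53 tested members and higher in 1 (median -0.18), and lower in 6 or 7 without any of decitabine-arm replicates 0, 1 and 2 or siDNMT1-arm replicates 0 and 2. APEX1, the endonuclease of abasic sites, had 42.2, 48.8 and 43.6 FPKM in the siDNMT1 arm and 76.5, 75.5 and 86.6 FPKM in the decitabine arm (log2 change -0.81, adjusted p = 0.000323).

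Targets of p53 were lower in the siDNMT1 arm in 16 of 45 tested members and higher in 3 (median -0.28). Over all tested genes 10.1% were lower and 9.03% higher, so the higher share of the list was below that over all genes. MDM2, the ubiquitin ligase that p53 induces and that degrades it, had 30.7, 28.0 and 29.3 FPKM in the siDNMT1 arm and 51.6, 56.1 and 54.2 FPKM in the decitabine arm (log2 change -0.86, adjusted p = 0.00217). DDB2, a factor of nucleotide excision repair, had 33.0, 31.9 and 32.7 FPKM in the siDNMT1 arm and 56.4, 56.8 and 61.4 FPKM in the decitabine arm (log2 change -0.82, adjusted p = 0.000334). Control siRNA alone averaged 24.8 ± 1.49 FPKM of MDM2 and 36.0 ± 5.97 FPKM of DDB2 (SD, n = 3), below the decitabine arm for both. FAS, a death receptor, averaged 9.47 ± 0.506 FPKM in the siDNMT1 arm and 15.3 ± 0.837 FPKM in the decitabine arm (log2 change -0.64, adjusted p = 0.00233). SPATA18, a mitochondrial quality control gene, averaged 1.25 ± 0.271 FPKM in the siDNMT1 arm and 3.42 ± 0.408 FPKM in the decitabine arm (log2 change -0.98, adjusted p = 4.33e-05). The lower count was 10 without decitabine-arm replicate 2 or siDNMT1-arm replicate 0, and the higher count was 0 or 1 without decitabine-arm replicate 1 or any siDNMT1-arm library.

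Cytosolic ribosomal protein genes were lower in 16 of 75 tested members and higher in 0, beside 10.1% lower and 9.03% higher over all tested genes. A positive change was found in 0 of the 75 (median -0.33). RPL14 had 449, 485 and 429 FPKM in the siDNMT1 arm and 645, 618 and 731 FPKM in the decitabine arm (log2 change -0.55, adjusted p = 0.00911). RPL24 had 884, 1068 and 903 FPKM in the siDNMT1 arm and 1405, 1339 and 1608 FPKM in the decitabine arm (log2 change -0.61, adjusted p = 0.00868). These genes have many processed pseudogenes, so their levels are uncertain. Their sum was 93206.9 to 106763.5 FPKM in the siDNMT1 arm and 113984.3 to 134135.1 FPKM in the decitabine arm. The count was 3 to 7 without decitabine-arm replicate 0 or 2 or siDNMT1-arm replicate 0 or 2 and 42 after quantile normalization. The share of FPKM in small RNA genes differed between the arms as given above, and its part in this result was not tested.

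Interferon-stimulated and viral RNA sensing genes were higher in 7 of 40 tested members and lower in 2 (median 0.09), and 31 were not called. Beside this list and the HLA and NF-kB lists below, 9.03% of all tested genes were higher and 10.1% lower. Besides BST2 the higher interferon genes included the factors of interferon signalling IRF1, STAT2 and IRF9. IRF9 had 5.98, 6.73 and 5.25 FPKM in the siDNMT1 arm and 3.02, 2.99 and 3.79 FPKM in the decitabine arm (log2 change 0.71, adjusted p = 0.00814). STAT2 averaged 13.0 ± 0.836 FPKM in the siDNMT1 arm and 8.94 ± 0.35 FPKM in the decitabine arm (log2 change 0.49, adjusted p = 0.00638). IRF1 averaged 9.99 ± 0.758 FPKM in the siDNMT1 arm and 7.23 ± 0.0683 FPKM in the decitabine arm (log2 change 0.42, adjusted p = 0.00503). The higher count was 4 without decitabine-arm replicate 1, and the lower count was 0 or 1 without any of the 6 libraries. Of 24 genes of HLA class I and antigen presentation, 5 were higher and 0 lower (median 0.14). HLA-B, a polymorphic gene with close relatives, had 324, 329 and 325 FPKM in the siDNMT1 arm and 233, 231 and 239 FPKM in the decitabine arm (log2 change 0.47, adjusted p = 0.00118). CD74, the invariant chain of class II molecules, had 3.94, 4.72 and 4.41 FPKM in the siDNMT1 arm and 1.55, 1.53 and 1.41 FPKM in the decitabine arm (log2 change 1.10, adjusted p = 3.2e-05). The HLA count was 2 without decitabine-arm replicate 2, 3 without siDNMT1-arm replicate 0 and 8 without replicate 0 of control siRNA plus decitabine. Of 15 inflammatory genes of the NF-kB list 0 were higher and 1 lower, and 0 were lower without any of 5 of the 6 libraries, decitabine-arm replicate 2 being the exception.

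Immediate early genes, which respond to growth signals, were higher in 9 of 33 tested members and lower in 2 (median 0.33). With no filter 7 were higher and 2 lower. Beside this list and the Wnt list below, 9.03% of all tested genes were higher and 10.1% lower. EGR2, a zinc finger factor, had 7.70, 5.86 and 7.90 FPKM in the siDNMT1 arm and 2.85, 3.82 and 2.72 FPKM in the decitabine arm (log2 change 0.98, adjusted p = 0.000137). DUSP5, a phosphatase of ERK, had 10.3, 10.2 and 9.40 FPKM in the siDNMT1 arm and 5.20, 5.08 and 4.40 FPKM in the decitabine arm (log2 change 0.90, adjusted p = 0.00182). IER5 was lower instead, with 24.4, 23.5 and 23.8 FPKM in the siDNMT1 arm and 47.0, 48.6 and 48.4 FPKM in the decitabine arm (log2 change -0.98, adjusted p = 1.1e-05). The higher count was 5 without siDNMT1-arm replicate 0 or 2 and 16 without replicate 0 of control siRNA plus decitabine. Wnt and intestinal stem cell genes were higher in 9 of 25 tested members and lower in 4 (median 0.33). APCDD1, an inhibitor of Wnt signalling, had 4.83, 4.61 and 3.93 FPKM in the siDNMT1 arm and 1.36, 1.10 and 1.22 FPKM in the decitabine arm (log2 change 1.29, adjusted p = 3.46e-05). RNF43, a ligase that removes Wnt receptors, averaged 60.3 ± 3.22 FPKM in the siDNMT1 arm and 42.9 ± 0.935 FPKM in the decitabine arm (log2 change 0.48, adjusted p = 0.000985). ETS2, a transcription factor, averaged 44.5 ± 0.136 FPKM in the siDNMT1 arm and 29.0 ± 0.892 FPKM in the decitabine arm (log2 change 0.60, adjusted p = 8.46e-05). PROM1, the stem cell antigen CD133, was lower, with 17.1 ± 0.445 FPKM in the siDNMT1 arm and 26.6 ± 0.153 FPKM in the decitabine arm (log2 change -0.61, adjusted p = 0.000325).

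Epithelial genes moved in both directions, and their counts stand beside 9.03% higher and 10.1% lower over all tested genes. KRT18 had 267, 283 and 272 FPKM in the siDNMT1 arm and 541, 517 and 534 FPKM in the decitabine arm (log2 change -0.95 ± 0.13 (SE), adjusted p = 0.000264). Its partner keratin KRT8 had 349, 342 and 329 FPKM in the siDNMT1 arm and 560.5, 513 and 517 FPKM in the decitabine arm (log2 change -0.64, adjusted p = 0.00412). The arms did not overlap for these keratins of simple epithelium, whose annotated ends overlap on opposite strands, and the strand setting of the counting is not given in the sources used here. CDH17, an intestinal cadherin, had 3.31, 2.53 and 2.88 FPKM in the siDNMT1 arm and 1.05, 1.00 and 0.953 FPKM in the decitabine arm (log2 change 0.96, adjusted p = 0.00205). CEACAM6, an adhesion molecule, averaged 1.64 ± 0.156 FPKM in the siDNMT1 arm and 0.668 ± 0.0695 FPKM in the decitabine arm (log2 change 0.66, adjusted p = 0.0065). Of 10 tested colon epithelial markers 2 were higher and 2 lower, and the sum over 12 markers was 1057.5 to 1099.6 FPKM in the siDNMT1 arm and 1441.6 to 1500.2 FPKM in the decitabine arm. Intestinal differentiation genes were higher in 3 of 16 and lower in 4. KLF4, a factor of differentiated epithelium, was among the lower and averaged 81.1 ± 4.18 FPKM in the siDNMT1 arm and 131 ± 5.26 FPKM in the decitabine arm (log2 change -0.69, adjusted p = 0.00986). Junction genes were higher in 6 of 36 and lower in 2. The desmosomal cadherin DSC2 had 71.7, 66.3 and 69.2 FPKM in the siDNMT1 arm and 25.4, 30.6 and 25.3 FPKM in the decitabine arm (log2 change 1.32, adjusted p = 0.00777). The higher count of junction genes was 1 to 3 without decitabine-arm replicate 0 or 2 or siDNMT1-arm replicate 0 or 2, and the lower count was 1 without any of the 6.

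Metabolic and chromatin lists had calls in both directions, beside 9.03% higher and 10.1% lower over all tested genes. In cholesterol synthesis 3 of 30 genes were higher and 3 lower. The sterol reductase TM7SF2 averaged 46.4 ± 1.35 FPKM in the siDNMT1 arm and 26.0 ± 0.293 FPKM in the decitabine arm (log2 change 0.81, adjusted p = 0.002). The thiolase ACAT2 averaged 17.8 ± 1.03 FPKM in the siDNMT1 arm and 29.5 ± 1.62 FPKM in the decitabine arm (log2 change -0.70, adjusted p = 0.00045). In hypoxia and glycolysis 3 of 30 were higher and 4 lower. The aldolase ALDOC averaged 35.0 ± 2.76 FPKM in the siDNMT1 arm and 16.4 ± 1.72 FPKM in the decitabine arm (log2 change 1.05, adjusted p = 0.000114). NDRG1, a gene induced by hypoxia, averaged 8.67 ± 0.259 FPKM in the siDNMT1 arm and 4.20 ± 0.223 FPKM in the decitabine arm (log2 change 0.89, adjusted p = 0.00279). PDK1, a kinase that inhibits pyruvate dehydrogenase, averaged 2.78 ± 0.194 FPKM in the siDNMT1 arm and 5.50 ± 0.51 FPKM in the decitabine arm (log2 change -0.78, adjusted p = 0.000754). In the list of metallothioneins and oxidative stress 5 of 27 were higher and 4 lower. The ferritin chains FTH1 and FTL averaged 721 ± 59.6 and 1579 ± 80.9 FPKM in the siDNMT1 arm and 386 ± 35.1 and 979 ± 66.2 FPKM in the decitabine arm (log2 changes 0.90 and 0.69, adjusted p = 0.00137 and 0.00713). In amino acid and endoplasmic reticulum stress 1 of 30 was higher and 4 lower. SHMT2, the mitochondrial serine hydroxymethyltransferase, averaged 54.4 ± 1.13 FPKM in the siDNMT1 arm and 89.4 ± 3.28 FPKM in the decitabine arm (log2 change -0.71, adjusted p = 0.00277). Of 28 polycomb genes 4 were higher and 3 lower. PHC1 averaged 6.78 ± 0.833 FPKM in the siDNMT1 arm and 3.44 ± 0.57 FPKM in the decitabine arm (log2 change 0.81, adjusted p = 0.00248). CBX2 averaged 9.58 ± 0.625 FPKM in the siDNMT1 arm and 14.3 ± 0.544 FPKM in the decitabine arm (log2 change -0.54, adjusted p = 0.0015). The lists of H3K9 methylation (4 of 24 higher, 1 lower), NuRD and CHD genes (1 of 20 higher, 4 lower, CHD4 included) and DNA methylation genes (2 of 18 higher, 1 lower, DNMT1 itself) also had calls in both directions. Most of these counts rested on single libraries. With 1 of the 6 libraries left out, the lower counts ranged from 1 to 3 in cholesterol synthesis, from 1 to 2 in hypoxia and glycolysis, from 0 to 3 in metallothioneins and oxidative stress, from 2 to 4 in amino acid stress, from 1 to 2 among polycomb genes and from 2 to 3 among NuRD and CHD genes. The higher counts ranged from 0 to 4 for H3K9 genes and from 0 to 1 for DNA methylation genes, and without replicate 0 of control siRNA plus decitabine 7 metallothionein and oxidative stress genes were lower. Among small RNA genes, 7 of 92 tested SNORA genes were higher and 0 lower (median 0.70), and 3 of 39 SNORD genes were higher and 1 lower.

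In cells given control siRNA, which share no library with the arms, the same contrast gave fewer calls. Control siRNA plus siDNMT1 differed from control siRNA plus decitabine in 608 genes (4.75%), 344 higher (2.69%) and 264 lower (2.06%). The number was 19 in a fit on those groups alone, 389 without replicate 0 of control siRNA plus decitabine, the shallowest library, 341 without its replicate 2, and 151 to 279 without a library of control siRNA plus siDNMT1. Called in both contrasts were 233 genes, 214 of them in the same direction, with 136 higher in both (11.8% of the higher genes with siCHD4 and 39.5% of those without) and 78 lower in both (6.06% and 29.5%). The genes higher in the siDNMT1 arm had a median log2 change of 0.60 with siCHD4 and 0.06 without, and the genes lower in it had -0.49 and -0.03. These genes were called on the change with siCHD4, so a larger median there follows in part from the choice. Genes called higher with control siRNA had medians of 0.53 with control siRNA and 0.25 with siCHD4. Those called lower with control siRNA had -0.53 and -0.14.

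H19 was lower with siDNMT1 in both settings: with control siRNA it had 18.2, 18.6 and 22.6 FPKM with siDNMT1 and 77.0, 72.6 and 77.8 FPKM with decitabine (log2 change -1.89, adjusted p = 1.16e-06). HOMER2 had 2.35, 2.25 and 1.85 FPKM with siDNMT1 and 6.60, 5.91 and 7.31 FPKM with decitabine in cells given control siRNA (log2 change -1.27, adjusted p = 3.98e-05). THBS1 had 79.0, 81.2 and 79.0 FPKM with siDNMT1 and 36.6, 35.7 and 34.3 FPKM with decitabine there (log2 change 1.14, adjusted p = 6.55e-07). APCDD1 averaged 9.09 ± 0.597 FPKM with siDNMT1 and 2.56 ± 0.909 FPKM with decitabine in cells given control siRNA (SD, n = 3 each; log2 change 1.53, adjusted p = 3.98e-05). These genes moved in the same direction with siCHD4 and with control siRNA, and the groups did not overlap.

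The contrast itself differed between siCHD4 and control siRNA in 1076 genes (8.4%), 533 with a positive difference (4.16%) and 543 with a negative one (4.24%), by the interaction of the 4 groups in the same fit. The number was between 308 and 1475 with 1 of the 12 libraries left out, lowest without siDNMT1-arm replicate 0. Of the genes higher in the siDNMT1 arm 403 (34.8%) also had a positive difference, and of the lower genes 384 (29.8%) had a negative difference. The difference contains the contrast between the arms, on which these genes were called. Shares above those over all tested genes thus follow in part from the choice of genes. CLDN6 had 0.266, 0.39 and 0.375 FPKM with control siRNA plus siDNMT1 and 1.15, 0.312 and 0.247 FPKM with control siRNA plus decitabine, so that its difference between the contrasts was 2.56 (adjusted p = 9.16e-05). TEX19 had 0.357, 0.327 and 0.378 FPKM with control siRNA plus siDNMT1 and 1.54, 0.21 and 0.222 FPKM with control siRNA plus decitabine, with a difference of 1.97 (adjusted p = 0.0025). MAGEC2 had 0.23, 0.19 and 0.244 FPKM with control siRNA plus siDNMT1 and 0.498, 0.135 and 0.161 FPKM with control siRNA plus decitabine, with a difference of 1.78 (adjusted p = 0.000236). All 3 genes were thus under 2 FPKM in every library given control siRNA, under either agent. With a pseudocount of 0.1 FPKM the difference of TEX19 was no longer called. BST2 had 2.39, 3.56 and 1.94 FPKM with control siRNA plus siDNMT1 and 9.74, 3.31 and 3.28 FPKM with control siRNA plus decitabine. Its change with control siRNA was not called (log2 change -0.71, adjusted p = 0.159), and the difference of the contrasts was called (2.01, adjusted p = 0.0126). That difference was 1.57 without replicate 0 of control siRNA plus decitabine, the library with the highest value of its group, and the largest adjusted p with any 1 library left out was 0.0346. RFC4 averaged 61.5 ± 2.03 FPKM with control siRNA plus siDNMT1 and 59.5 ± 3.53 FPKM with control siRNA plus decitabine, and its difference was -0.92 (adjusted p = 0.00471). Of the DNA replication list, 0 members were higher and 1 lower in the contrast with control siRNA, and 14 of 55 had a negative difference between the contrasts. Of the p53 targets, 9 of 45 were lower and 0 higher with siDNMT1 than with decitabine in cells given control siRNA too, and 1 had a positive and 1 a negative difference. The schedules of the 4 groups match in pairs, but CHD4 itself had a difference of -0.77 (adjusted p = 0.0289, above 0.05 without any of 9 of the 12 libraries), so the unequal level of CHD4 and the agent cannot be told apart here either.

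**Figure D5:**
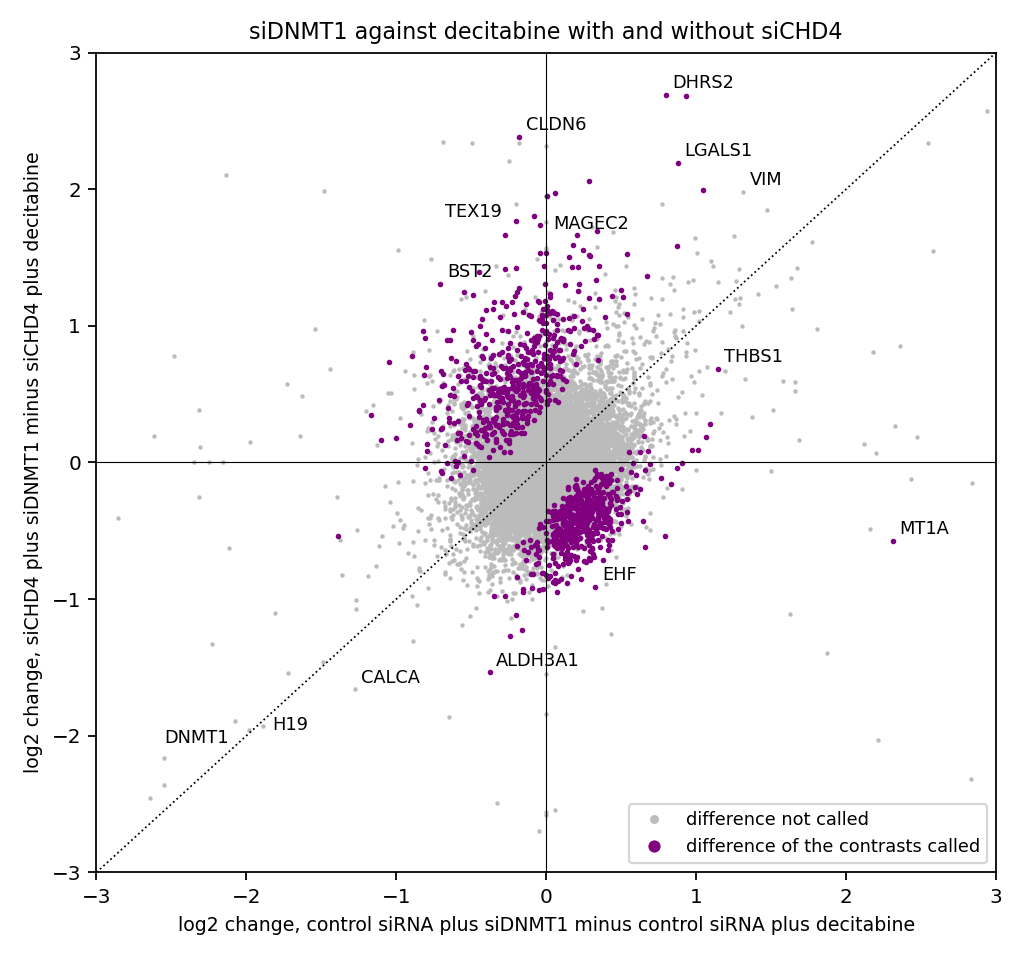
Each point is a tested gene: the horizontal axis gives its log2 change between siDNMT1 and decitabine with control siRNA, and the vertical axis that with siCHD4, both on the log2(FPKM + 1) scale. Purple genes have a called difference between the contrasts, the dotted line marks equal changes, and 58 genes lie beyond the plotted range of 3. H19 and DNMT1 lie on the line (-1.93 and -1.96 with siCHD4, -1.89 and -1.98 without), while CLDN6 and TEX19 lie high on the vertical axis near 0 on the horizontal.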

How the data were processed

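RNA was sequenced from 18 libraries of SW48 cells, 3 in each of 6 groups, after depletion of ribosomal RNA with a stranded kit, per the labels' protocols. The deposited table gives FPKM per gene and library. Tools named in the submitters' processing notes are TopHat2 2.0.9 and Cuffdiff 2.1.1, with build hg19; counting options are not stated there. Of 23599 entries, 28 (0.119%) had date-like names and were left out. From the authors' FPKM, log2(FPKM + 1) was fitted with limma 3.58.1 (R 4.3.3), with 1 mean per group over all 18 libraries (12 residual degrees of freedom), a mean-variance trend and a filter of 1 FPKM in 3 libraries, and tested two-sided with Benjamini-Hochberg adjustment. The fit was tested on simulated data. FPKM are scaled to the mapped total of the library, so a class that takes many fragments can lower other values. The FPKM of a library do not add to a fixed total, and their sum ranged from 765078 to 1727234. Genes named were the 15 with the largest called change in each direction with their arms separated, up to 5 per list and up to 5 per direction of the difference. This gave 186 genes, of which the text names 93, chosen after their values were seen. Some items are not reported here. Members, genes and lists were chosen with earlier results of these data known. Alternatives were other filters, pseudocounts, scalings, weights, a replicate block and each library left out. Promoter sequences were read from RefSeq (GRCh38.p14), and gene locations from GENCODE on GRCh37, for 12331 tested genes.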

Additional observations from a re-analysis of the deposited data

Results flagged for a closer look

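The contrast of siDNMT1 with decitabine differed between cells given siCHD4 and cells given control siRNA in 1076 genes, by the interaction of the 4 groups in limma with Benjamini-Hochberg adjustment over 12809 genes. Of the genes named, 53 passed this test, beside 8.4% of all tested genes. Most named genes were chosen by their change between the arms, which is part of this difference, or by the difference itself. The count of 53 thus follows in part from the choice. The values below are the log2 change with siCHD4 minus that with control siRNA, on the log2(FPKM + 1) scale. For 34 of the 53 the call held with any of the 12 libraries left out, and for the 19 others it was lost without at least 1 of them. Across all settings run, 21 of the 53 calls held in every one. Among the 34, the calls of IL1RAPL1, SNCG, TEX19, MAGEB6, MAGEC1, VCX, VCX3B, TDRD9, TEX101, FN1, DKK1, ESR1 and CD74 were lost with a pseudocount of 0.1 FPKM. Among the 19 others, that pseudocount also lost the calls of DHRS2, LGALS1, DPEP3, KRT31, THBS1, UCHL1, COL1A1, PTPRC, IRF9 and EGR2. CHD4 itself was at 87.3% of the control siRNA level in the decitabine arm and at 45.2% in the siDNMT1 arm, so the siRNA given does not stand for an equal CHD4 level. Every group had 3 libraries.

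Germline genes had positive differences: 1.78 for MAGEC2, 1.31 for MAGEB6, 1.14 for MAGEA10, 1.10 for MAGEC1, 1.92 for VCX3A, 1.46 for VCX, 1.35 for VCX3B, 1.97 for TEX19, 1.52 for TEX101 and 0.64 for TDRD9. Genes of embryonic, neural and other tissues did too, with 2.56 for CLDN6, 1.75 for IL1RAPL1, 1.94 for S100A1 and 1.94 for SNCG. Matrix, signalling and hormone receptor genes followed, with 0.66 for FN1, 0.91 for AXL, 1.84 for CTGF, 0.69 for DKK1 and 0.52 for ESR1. Immune genes had 2.01 (BST2), 1.25 (CD74) and 0.56 (HLA-B), and the metabolic genes TM7SF2 and ALDOC had 1.11 and 0.90.

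Negative differences were found for the replication genes RFC4 (-0.92) and RRM1 (-0.72), for the repair gene APEX1 (-0.78), for the immediate early gene IER5 (-0.70) and for ALDH3A1 (-1.16), EHF (-1.24), ACAT2 (-0.98) and PDK1 (-1.0). The metallothionein MT1A had 8.81 FPKM with control siRNA plus siDNMT1 and 1.41 FPKM with control siRNA plus decitabine, against 2.48 FPKM in the siDNMT1 arm and 4.23 FPKM in the decitabine arm, a difference of -2.88. The small nucleolar RNA SNORD83B had 0, 0 and 360.2 FPKM in the siDNMT1 arm and 1046, 779 and 310.4 FPKM in the decitabine arm, 413, 1816 and 1310.0 FPKM with control siRNA plus siDNMT1 and 0, 0 and 0 FPKM with control siRNA plus decitabine. Its difference of -16.43 rests on libraries listed at 0, which can be failed estimates.

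The calls that were lost with at least 1 library left out were those of CHD4 itself (-0.77), DHRS2 (1.89), LGALS1 (1.32), DPEP3 (0.95), UCHL1 (0.67), COL1A1 (0.89), PTPRC (0.62), GRB10 (1.09) and IRF9 (0.81). They also included EGR2 (0.73), DUSP5 (0.95), NDRG1 (1.00) and PHC1 (0.93), all positive, and KRT31 (-1.06), KRT18 (-0.80), FEN1 (-0.72), DCK (-1.01), SPATA18 (-0.63) and THBS1 (-0.46), all negative. THBS1 was higher with siDNMT1 in both settings, by 0.69 with siCHD4 and 1.14 with control siRNA. Over these 19 genes the largest adjusted p with a library left out was 0.113.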

How the results depend on the processing

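The depth in reads is unknown, since the values are FPKM. The number of called genes between the arms was 2445, and 1281 to 3431 with 1 library left out, the highest without replicate 0 of control siRNA plus decitabine. It was 4874 in a fit on the compared groups alone and 6648 with library weights. For the contrast with control siRNA the number was 608, 151 to 855 with 1 library left out, 19 in a fit on its own groups, 3827 with library weights and 361 with a replicate block. For the difference of the contrasts it was 1076, 308 to 1475 with 1 library left out, 1906 in a fit on the 4 groups, 5626 with library weights, 693 with a pseudocount of 0.1 FPKM and 692 with the replicate block. The share of higher calls, 47.3% between the arms and 49.5% for the difference, was 59% and 60.8% with no filter and 36.5% and 36.6% with a filter of 5 FPKM. Of 169 called genes that the naming rule gives, 117 kept the call with any of the 6 libraries of the arms left out, and 52 lost it at least once. The text names 90 of the 169, of which 88 kept it, against 29 of the 79 others. The genes in the text were chosen with their stability known, so their counts are no sign of stability. Among the 90 the 8 losses were SNORD83B (adjusted p = 0.0551 in the fit on the compared groups and 0.0526 without siDNMT1-arm replicate 0), SNAR-I (0.0542 in the fit on the compared groups), KRT31, TUBA3D, ESR1 and BEX2 (with a pseudocount of 0.1 FPKM) and DCK. DNMT3A and MT1A, not called between the arms, passed in the fit on the compared groups and with library weights. Of 528 pairs of gene list and setting, 172 moved a count by over 1.5 times. The causes were not tested, except that leaving out a library leaves fewer samples. Replicate numbers pair nothing here: the residual correlations of same-numbered libraries were 0.101, -0.0278 and -0.00637 between the arms and -0.066, 0.000678 and -0.0903 with control siRNA, and with the block 2211 genes were called between the arms.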
